A study of Mus musculus with 6 samples.

Results

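Blood cells sorted as regulatory T cells (Tregs) were compared between mice given an experimental stroke and sham-operated mice. Foxp3 and T cell genes were low in the stroke libraries and macrophage genes high, so the groups are called here by their labels. The comparison used 4 of the 6 libraries of the series, chosen by their labels: 2 of blood after transient middle cerebral artery occlusion (tMCAO) and 2 of blood after a sham operation. The mice, males aged 9 weeks on a C57BL/6N background, all carried Tg(Foxp3-DTR/EGFP)23.2Spar, in which Foxp3 sequences drive a fusion of the diphtheria toxin receptor and green fluorescent protein. The sham controls therefore carried the transgene too, and the labels name no toxin treatment. In tMCAO a main artery of the brain is blocked and reopened, here for 60 min, and cells were taken 14 days later. No time after the operation is given here for the sham blood. Each library held the RNA of 500 to 1000 cells sorted as CD4+CD25+Foxp3+. The labels do not say whether the 2 libraries of a group came from different mice, so the p-values measure only the spread between libraries, which may be technical. The other 2 libraries, labelled as brain Tregs after tMCAO, entered the model to share the estimate of the spread and are quoted for a few genes. They too were low in T cell genes, with Foxp3 at 0.726 and 19.6 CPM (CPM, defined with the depths below), Cd3e at 10.7 and 87 CPM, T cell identity genes at 0.0332% and 0.173% of counts, and genes that myeloid cells raise on taking up lipid at 15.4% and 8.89%. Set against each other, the blood groups ask which transcripts differed between 2 operations at the same site.

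Tregs are CD4+ T cells that restrain other immune cells. They are defined by the transcription factor Foxp3, need interleukin-2, which they bind through the high-affinity receptor chain CD25 (Il2ra), and recognise antigen through a T cell receptor. The blood around them holds red cells, platelets, neutrophils and monocytes in much larger numbers, and monocytes can become macrophages once they enter tissue. After a stroke the blood and the spleen lose lymphocytes and release myeloid cells.

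The 4 libraries held 19312572 and 16663506 counts (tMCAO blood) and 15216373 and 14348179 counts (sham blood). Levels of single genes are given as CPM, counts scaled to the TMM-adjusted size of a library, in the order library 1 and library 2 of a group. The libraries of a group did not agree equally well. Among genes of at least 20 CPM, the tMCAO blood pair differed by more than 4-fold in 3.75% of 6162 genes and the sham pair in 0.149% of 6058 genes. Across genes, Spearman's rho was 0.933 within tMCAO blood, 0.973 within sham blood and 0.824 to 0.894 between the groups. Genes are not independent replicates, and these coefficients describe the libraries only.

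The genes that define the sort were low in the tMCAO blood libraries. Foxp3 was at 0.538 and 5.18 CPM in the 2 tMCAO libraries, against 50.1 and 60.7 CPM in the 2 sham libraries. Both tMCAO libraries lay below both sham libraries, and library 1 was near 0. Il2ra read 20.5 and 118 CPM after tMCAO and 328 and 398 CPM after sham. Cd4, the co-receptor used in the gate, read 12.6 and 88.1 against 171 and 183 CPM in the same order. Cd3e, a chain of the T cell receptor complex, read 17.2 and 119.7 against 441 and 418 CPM. In all 4 genes tMCAO library 1 was the lowest library and tMCAO library 2 lay between it and the sham pair. With the quasi-likelihood test of edgeR none of the 4 passed an adjusted p of 0.05. The log2 change of Foxp3 was -4.27 ± 1.57 (SE, n = 2 libraries a group, adjusted p = 0.135), and with DESeq2 its adjusted p was 0.00798. The DESeq2 adjusted p was 0.0318 for Il2ra, 0.0446 for Cd3e and 0.0807 for Cd4. Of 21 T cell identity genes 0 were called by edgeR, 19 had both tMCAO libraries below both sham libraries, and the median log2 change was -1.96 (0.02 with libraries scaled to these genes). DESeq2 called 7 of the 21 lower and 0 higher, against 10.4% of all genes called lower. The summed share of the 21 genes in all counts was 0.0769% and 0.519% after tMCAO, against 1.01% and 0.981% after sham. In bulk libraries fewer T cells and less RNA per T cell cannot be told apart.

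Markers of some other blood cells differed between the groups as well. The 19 macrophage markers took 1.08% and 0.594% of counts after tMCAO, against 0.0483% and 0.0682% after sham. Red cell genes, the globins included, took 0.118% and 3.88% against 16.1% and 17.8%. Neutrophil genes took 0.0402% and 0.824% against 0.00239% and 0.00234%. B cell genes took 0.0236% and 0.11% against 0.0941% and 0.125%. Markers of cytotoxic and natural killer cells took 0.047% and 0.13% against 0.03% and 0.0471%. For B cell genes and for these markers the groups overlapped. The libraries labelled tMCAO blood thus held less of the labelled cell type's RNA and more RNA of macrophage markers than the sham libraries. The part that this difference in makeup had in the gene changes below was not tested.

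**Figure D1:**
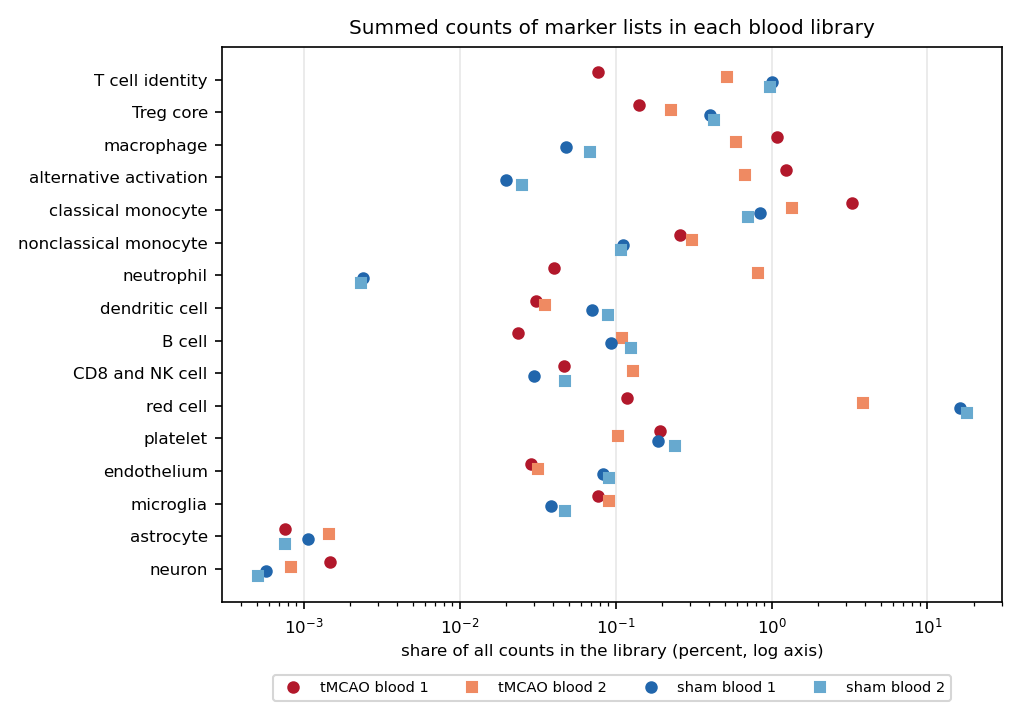
Share of all counts taken by each of 16 lists of marker genes (percent, log axis) in the 4 blood libraries, with circles for library 1 and squares for library 2. Red and orange points (tMCAO blood) lie to the left of blue points (sham blood) for T cell identity and red cell genes, and to the right for macrophage, alternative activation and neutrophil genes.

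Of 16657 genes tested, 722 (4.33%) were higher and 524 (3.15%) lower after tMCAO than after sham by edgeR at an adjusted p of 0.05, together 7.48%. The median change was 7.32-fold among the higher and 4.16-fold among the lower genes, and the smallest was 2.09-fold. The median log2 change over all tested genes was 0.11. In 76 of the higher genes both sham libraries had 0 counts, and in 12 of the lower genes both tMCAO libraries had 0. DESeq2 called 12.4% of genes higher and 10.4% lower, 22.7% in all, and these included 720 of the 722 and 524 of the 524 edgeR calls. The split depended on the scaling. Without TMM factors 946 genes were higher and 393 lower, and the median of all genes moved to 0.22. With libraries scaled to the T cell identity genes 1351 were higher and 1 lower, and the median of all genes was 2.93. Every change below is relative to the TMM scaling. Where a list had fewer genes tested than listed, the tested members may have passed the filter on low counts only through the group where they were high, so their counts and medians describe the genes tested and support nothing about the list.

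These calls rested on 3 libraries. Without tMCAO blood library 1, sham library 1 or sham library 2 edgeR called 0 genes, the smallest adjusted p being 0.0711, 0.122 and 0.174. At an unadjusted p under 0.05, 1918, 1728 and 1480 genes were then higher and 1925, 1427 and 1010 lower. DESeq2, run without the same libraries after these losses were seen, called 901, 973 and 841 genes higher and 1117, 624 and 338 lower. The adjusted p of edgeR without these 3 libraries is therefore given as a range with each gene group. Such a fit leaves 1 library in a group, which is assumed to vary like the other groups.

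**Figure D2:**
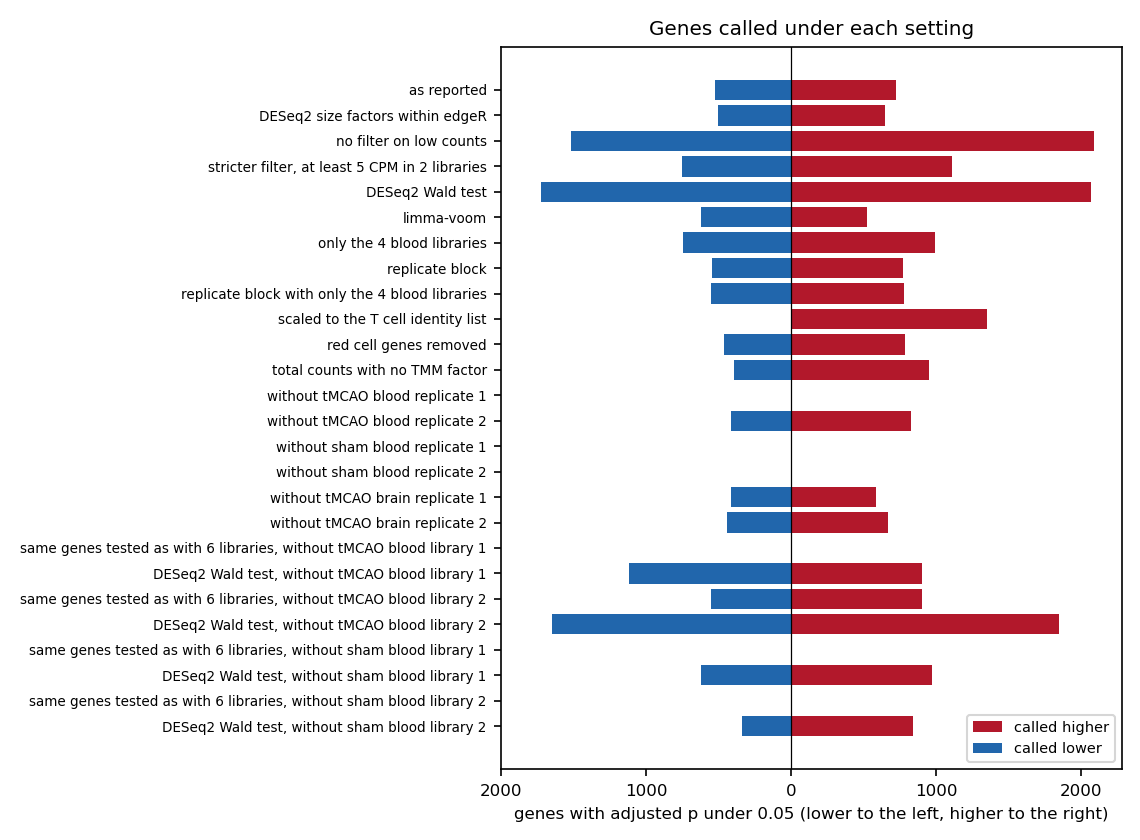
Genes called higher (red, to the right) and lower (blue, to the left) at an adjusted p of 0.05 under each way of running the test. The 722 and 524 genes reported are in the top bar, and the settings without tMCAO blood library 1, sham library 1 or sham library 2 have no bar with edgeR and a bar with DESeq2.

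**Figure D3:**
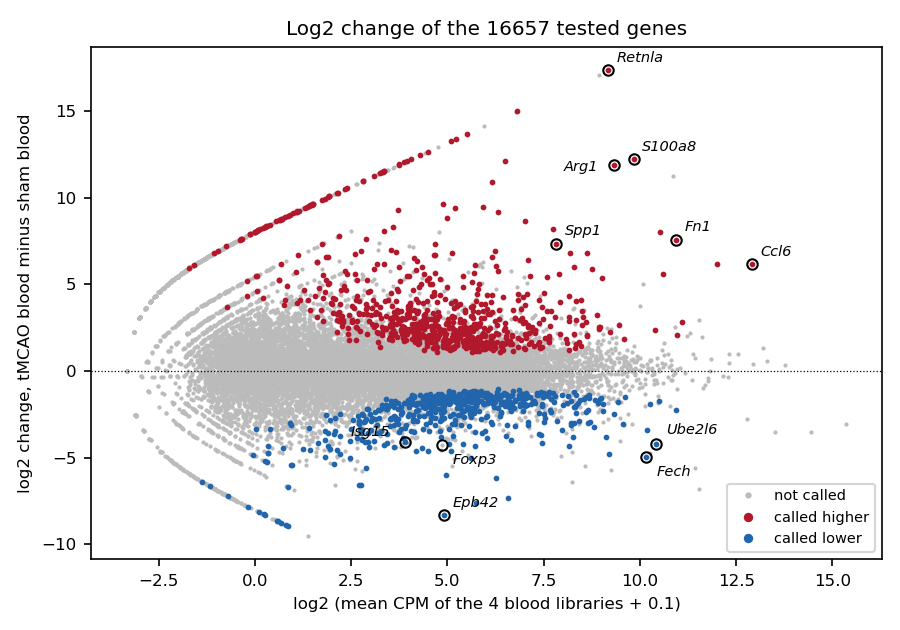
Log2 change of each tested gene (tMCAO blood minus sham blood) against its log2 mean CPM over the 4 blood libraries, with 0.1 added. Red genes were called higher and blue genes lower by edgeR, and the arcs at the left hold genes with 0 counts in 1 group, whose fitted change depends on the prior count. Foxp3 lies at -4.27 and was not called.

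Most macrophage markers rose. Of 19 in the list, all tested, 12 were called higher and 0 lower, against 4.33% of all genes, with a median log2 change of 5.37. Mertk, a receptor for the uptake of dying cells, read 197 and 103 CPM after tMCAO and 0.77 and 1.69 CPM after sham, a log2 change of 6.93 ± 0.59 (edgeR adjusted p = 0.0313). Itgam, the integrin chain CD11b of myeloid cells, read 1378 and 335 against 15.8 and 12.7 CPM in the same order. In both genes the groups were far apart, although tMCAO library 1 was above library 2. Csf1r, the receptor for the macrophage growth factor M-CSF, rose 4.32-fold from a base of 104 and 131 CPM in sham blood to 542 and 472 CPM. Sirpa, an inhibitory receptor of phagocytes, rose 5.86-fold. Others among the 12, chosen after their values were seen, were Adgre1, which encodes F4/80 (824 and 386 against 26.9 and 47.1 CPM), Cd5l, a secreted protein of tissue macrophages (492 and 361 against 2.89 and 0 CPM), and Timd4, a receptor for phosphatidylserine on resident macrophages. Timd4 had 20.7 and 17.1 CPM after tMCAO and 0 counts in both sham libraries, and its call was lost without tMCAO blood library 2 (adjusted p = 0.0661). Marco, a scavenger receptor, read 32.2 and 6.63 against 0 and 0 CPM and was called by edgeR (adjusted p = 0.0424) but not by DESeq2 (0.0953). With limma-voom the calls of Timd4 (0.131) and Marco (0.0789) were lost. The 7 members not called included Mrc1 (273 and 119.5 against 2.44 and 4.64 CPM) and Maf (420.1 and 241 against 111 and 69.3 CPM). Leaving out any of the 3 libraries named above raised the adjusted p of the 12 calls to 0.0711 to 0.28.

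Genes of alternative macrophage activation, the state set off by interleukin-4 and interleukin-13, included the largest rise of the comparison. Of 14 tested members in a list of 15, 5 were called higher and 0 lower, against 4.33% of all genes called higher (median log2 change 6.65). Retnla encodes RELM-alpha, a secreted protein of this state. It read 1049 and 1269 CPM after tMCAO and had 0 counts in both sham libraries, at least 11600-fold higher when the sham group is set to 3 counts in all (adjusted p = 0.0313). It also had 0 counts in both brain libraries. Among the genes that rose it was one in which the 2 tMCAO libraries lay close together. Arg1, the enzyme arginase, read 2422 and 156 CPM after tMCAO and 0.642 and 0 CPM after sham, with library 1 far above library 2. Fn1, fibronectin, read 6349.9 and 1434 against 23.2 and 17.4 CPM, a 192-fold change with a log2 change of 7.58 ± 0.91 (adjusted p = 0.0313). Alox15, a lipoxygenase of lipid mediators, read 214 and 306 against 1.22 and 0 CPM, and Ccl24, an eosinophil attractant, 118 and 27.6 against 0 and 0.211 CPM. Chil3, which encodes Ym1, was measured at 2045 and 1797 against 111 and 169.5 CPM and was not called (adjusted p = 0.0822, DESeq2 0.000949). Retnla and its neighbour Retnlg are related copies, and reads that fit both could be split between them. With limma-voom the calls of Arg1 (adjusted p = 0.133) and Ccl24 (0.236) were lost. The adjusted p of the 5 calls was 0.0711 to 0.278 without the 3 libraries.

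The promoter sequences of 3 rising genes are printed because these genes belong to different myeloid gene groups and hold the same short sequence, GAGGAAGT, a form of the site read by PU.1, a transcription factor of myeloid cells. The stretches are from RefSeq (GRCm38.p6), 5′ to 3′ on the gene's strand, with a match on either strand in capitals. They come from chr16:48842401-48842520 (plus strand, Retnla), chr5:104434991-104435110 (plus strand, Spp1) and chr10:79879547-79879666 (plus strand, Prtn3).
Retnla: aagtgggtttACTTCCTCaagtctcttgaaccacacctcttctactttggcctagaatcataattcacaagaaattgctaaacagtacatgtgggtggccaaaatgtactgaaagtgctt
Spp1: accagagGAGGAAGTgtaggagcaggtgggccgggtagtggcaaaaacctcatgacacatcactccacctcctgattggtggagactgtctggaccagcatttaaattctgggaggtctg
Prtn3: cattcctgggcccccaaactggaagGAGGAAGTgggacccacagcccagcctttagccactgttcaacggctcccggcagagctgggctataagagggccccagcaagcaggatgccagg
The match began 198, 113 and 95 bases before the start of the transcript. A RefSeq window of 250 bases before the start was found for 10912 of the 16657 tested genes. GAGGAAGT was present on either strand in 4.43% of the windows of genes called higher, 3.05% of those called lower and 3.3% of all tested genes with a window. A match is a description of the letters and not evidence of binding.

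Genes that myeloid cells raise when they take up lipid and debris rose in part. Of 18 members, all tested, 8 were called higher and 0 lower, against 4.33% of all genes called higher (median log2 change 2.68). Spp1, which encodes osteopontin, the secreted protein named in the series title, read 669.5 and 234 CPM in the 2 tMCAO libraries, against 0.257 and 5.28 CPM in the 2 sham libraries. The groups did not overlap, and the log2 change was 7.35 ± 1.48 (adjusted p = 0.0421). In the brain libraries Spp1 read 19284 and 12353 CPM. Trem2, a lipid receptor, rose 8.8-fold from 4.62 and 9.43 CPM to 83.2 and 40.4 CPM, and Tyrobp, its signalling partner DAP12, rose 7.07-fold. Lpl, a lipase, read 381 and 311 against 6.23 and 24.1 CPM. Igf1, a growth factor, read 19.1 and 30.4 against 2.5 and 6.05 CPM, and its call was also lost without tMCAO blood library 2 (adjusted p = 0.0777), brain library 1 (0.0507) or brain library 2 (0.0501). Ctsl, a lysosomal protease, read 1078 and 154 against 10.3 and 9.15 CPM. Of 20 lysosomal genes, read against the same 4.33%, 5 were called higher and 0 lower, among them Ctsl, Ctsd, the membrane protein Lamp1 (456 and 198 against 27.3 and 23.6 CPM) and Grn, the precursor of granulins (895 and 430.2 against 58.3 and 61.2 CPM). Ctsd was outside the rule for named genes. With any of the 3 libraries left out, the adjusted p of the calls in both lists was 0.0711 to 0.301.

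Osteopontin binds CD44 and several integrins. Of 9 tested genes, in a list of 10, for osteopontin and its receptors 4 were called higher and 0 lower, against 4.33% of all genes called higher: Spp1, Cd44, Itga9 and Itgb5. Cd44, an adhesion receptor for hyaluronan too, read 1141 and 553 against 152 and 134 CPM. Itga9, the chain of integrin alpha 9, read 8.35 and 26.9 against 0.0642 and 0.422 CPM, with library 2 above library 1, and its call was lost without tMCAO blood library 2 (adjusted p = 0.0529) and with limma-voom (0.0718). Itgb5 read 28 and 42.6 against 10.2 and 10.5 CPM, a 3.41-fold change. The adjusted p of the 4 calls was 0.0816 to 0.29 without the 3 libraries.

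Among the 4 blood libraries the chemokine ligands that rose were highest in tMCAO library 1. Of 13 tested CC chemokine ligands in a list of 17, 3 were called higher, Ccl24 and the 2 below, and 0 lower, against 4.33% of all genes called higher. The sham libraries had 0 counts for 9 and 6 of the 17, so the count is not read as a result about these ligands. Ccl6, a myeloid chemokine of rodents, read 27634 and 2561 CPM in the 2 tMCAO libraries, against 215 and 205 CPM in the 2 sham libraries, and Ccl9, a second one, 5464 and 602 against 71.4 and 55.2 CPM. In both genes tMCAO library 1 was about an order of magnitude above library 2, and both were above the sham pair. Without brain library 1 the adjusted p was 0.0506 for Ccl6 and 0.0507 for Ccl9, and without brain library 2 it was 0.0501 for Ccl9. Ccl2 (233 and 5.73 against 1.41 and 1.62 CPM) and Ccl7 (242 and 6.58 against 0 and 0 CPM), which attract monocytes, were high in library 1 and not called (adjusted p = 0.0876 and 0.0725); both were named after their values were seen. Cxcl16, a ligand on myeloid cells, rose 8.43-fold, and Cxcl14 read 5.01 and 1.84 CPM against 0 counts in both sham libraries. In the brain libraries Cxcl16 read 446 and 359 CPM and Cxcl14 24.8 and 19.2 CPM, above both tMCAO blood libraries. Among the homing receptors Selplg, the selectin ligand PSGL-1, was lower (273 and 354 against 1021 and 1113 CPM), a direction that turned to 0.98 on the log2 scale when libraries were scaled to T cell genes, and its call was lost without tMCAO blood library 2 (adjusted p = 0.0541) or without TMM factors (0.0645). The receptor of classical monocytes, Ccr2, read 251 and 374 against 324 and 232 CPM, and its groups overlapped. For the 6 calls named here the adjusted p without the 3 libraries was 0.0711 to 0.296.

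Complement genes rose in 7 of 18 tested members, in a list of 20, and fell in 0, against 4.33% of all genes called higher (median log2 change 3.85, or 4.10 with genes at 0 counts in a group set to their lower bound). C4b, a component of the classical pathway, read 129 and 113 CPM in the 2 tMCAO libraries, against 0.257 and 0.0704 CPM in the 2 sham libraries, and the 2 tMCAO libraries were close together. Its call was lost with limma-voom (adjusted p = 0.0848). C1ra, a protease of the first complex, read 15.3 and 5.43 CPM against 0 counts in both sham libraries. Cfp, properdin, which stabilises the alternative pathway, read 450.2 and 183 against 12.1 and 24.8 CPM. Further calls were Itgam, C1qa (274 and 160.4 against 2.57 and 17.4 CPM) and C1qc (1363 and 642 against 8.92 and 39.5 CPM). The C1qa call was lost without tMCAO blood library 2 (adjusted p = 0.0632), brain library 1 (0.0562) or brain library 2 (0.0563), and with the size factors of DESeq2 in edgeR. Cfp, C1qa and C1qc were named after their values were seen. C4b has a near copy, C4a, and reads that fit both could be split. The counts of the next 3 lists are read against the same 4.33%. Of 8 tested Fc receptors (in a list of 10), which bind antibodies, Fcgr4 (851 and 479 against 32.7 and 46.3 CPM) and Fcgr3 (1300.2 and 422 against 72.3 and 111 CPM) were higher and none was lower. Of 20 Toll-like receptor genes 2 were higher, Tlr13 (177 and 111 against 20 and 16.5 CPM) and the co-receptor Cd14 (589.6 and 164 against 6.03 and 11.3 CPM), and 0 lower. Of 13 tested metalloproteinases and inhibitors (in a list of 16), Timp2 (199 and 66.2 against 10.1 and 6.54 CPM) and Adam8 (153 and 35.3 against 10 and 4.15 CPM) were higher, the latter with an adjusted p of 0.0605 without brain library 1, 0.0585 without brain library 2 and 0.073 with limma-voom. Across these 4 lists the adjusted p of the calls without the 3 libraries was 0.0711 to 0.312.

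A few neutrophil genes rose in tMCAO blood. The list has 19 genes, of which 18 were in the table and 12 were tested, and 3 were called higher and 0 lower. S100a8, a subunit of the alarmin calprotectin, read 199 and 3466 CPM in the 2 tMCAO libraries, against 0.0642 and 0.704 CPM in the 2 sham libraries, and its call was lost without tMCAO blood library 2 (adjusted p = 0.0633). Lcn2, which binds bacterial iron carriers, read 19.1 and 162 CPM against 0 counts in both sham libraries. Prtn3, a granule protease, was the exception in order, with 71.3 and 29.1 against 0.449 and 0.141 CPM and library 1 on top. S100a9, Ngp and Camp, named after their values were seen, read 58.5 and 1892 CPM, 0.215 and 438 CPM and 0.162 and 178 CPM after tMCAO, with 0 counts in both sham libraries. S100a9 was not called (adjusted p = 0.0582), and Ngp and Camp did not pass the filter on low counts. A filter that a gene can pass through its high group alone favours genes that differ, so the count of 3 among 12 is not read as a result about neutrophil genes. With limma-voom the calls of S100a8 (adjusted p = 0.215) and Lcn2 (0.145) were lost. The 3 calls had adjusted p of 0.0711 to 0.292 without the 3 libraries.

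The counts of the lists that follow are read against 4.33% of all genes called higher and 3.15% called lower. The classical monocyte list was higher in 3 of 15 genes, Fn1, Lyz1 (201 and 83.2 against 1.22 and 1.76 CPM) and the glutathione reductase gene Gsr (215 and 238 against 60.3 and 40.4 CPM, adjusted p = 0.0724 without tMCAO blood library 2), and lower in 0. Lyz1 is a close copy of Lyz2, and reads could be split between them. Of 13 tested nonclassical monocyte genes 1 was called higher, Gngt2 (983 and 665 against 151 and 153 CPM). Of 15 microglial genes, shared in part with other macrophages, 2 were higher, Csf1r and Trem2, and 2 lower. The lower genes Gpr34 (4.47 and 10.1 against 51 and 73 CPM) and P2ry12 (15.8 and 26.4 against 57.3 and 75.4 CPM) are receptors of resting microglia, the latter also of platelets, and P2ry12 turned to 0.95 on the log2 scale with T cell scaling. Without brain library 1 or 2 the adjusted p of P2ry12 was 0.0612 and 0.059, and without TMM factors it was 0.0846, and the call was also lost with red cell genes removed. Of 16 dendritic cell genes 2 were higher and 2 lower. Tcf4 (45.9 and 34.3 against 6.61 and 8.94 CPM) and Irf8 (90.7 and 72 against 26.3 and 33.6 CPM), transcription factors of plasmacytoid and other dendritic cells, were higher, and Cd83 (3.39 and 7.08 against 37.4 and 53.2 CPM) and Cd209a (3.82 and 6.38 against 15.4 and 16 CPM) lower. Cd209a turned to 0.97 with T cell scaling, and the adjusted p without brain library 1 and 2 was 0.0571 and 0.0559 for Irf8 and 0.0627 and 0.0618 for Cd209a. The Cd209a call was also lost with limma-voom (0.0578), the blood libraries alone (0.066) and no TMM factors (0.0797). Of 13 genes of MHC class II presentation 1 was higher, Ifi30, a reductase of lysosomes (527 and 266 against 48.6 and 41.6 CPM). All calls of these lists had adjusted p of 0.0711 to 0.339 without the 3 libraries.

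**Figure D4:**
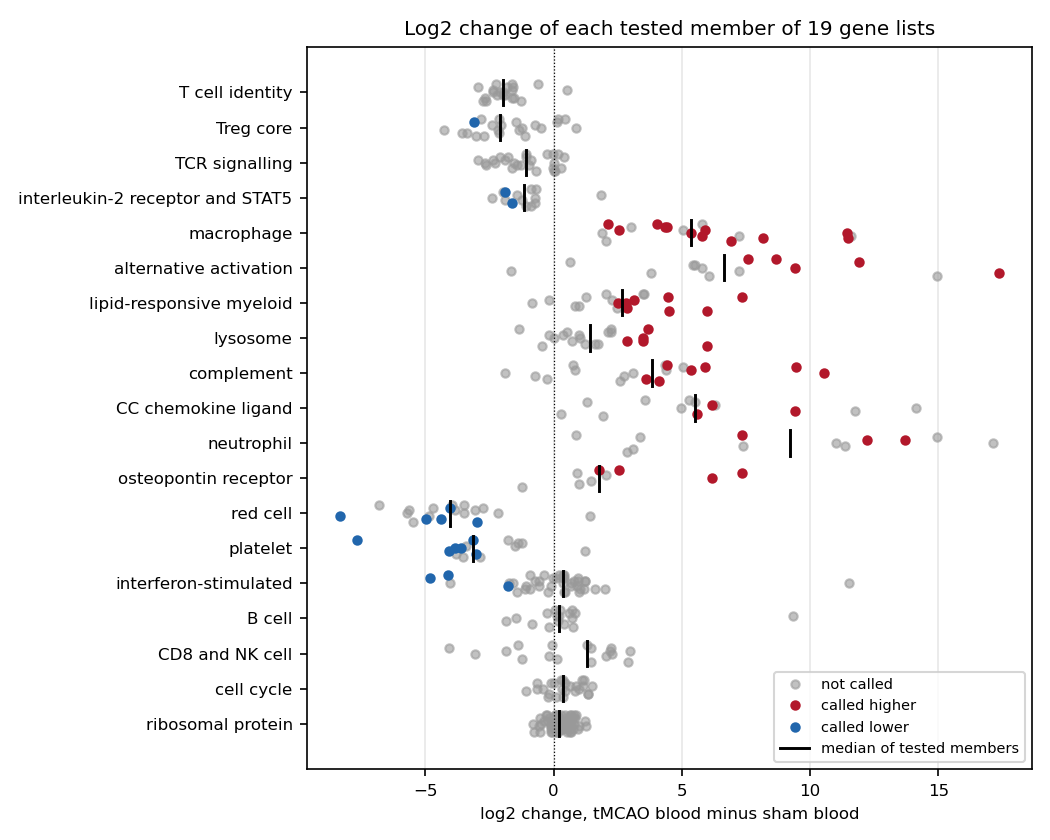
Log2 change (tMCAO blood minus sham blood) of each tested member of 19 gene lists, with the median of a list as a vertical bar, genes called higher in red and genes called lower in blue. The median is -4.04 for red cell genes and 5.37 for macrophage genes. Bars cover only members that passed the filter on low counts. It left out members of the neutrophil, CC chemokine ligand, complement, alternative activation, osteopontin receptor, platelet and B cell lists. The T cell identity, TCR signalling, B cell, CD8 and NK cell, cell cycle and ribosomal protein lists hold no call.

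The other genes among the 15 largest rises were not in a list. Wfdc21, a small secreted protein of the whey acidic protein family, read 304 and 147 CPM against 0 counts in both sham libraries, and its call was lost without tMCAO blood library 2 (adjusted p = 0.0689). Ednrb, an endothelin receptor, read 112 and 36.6 CPM and F7, coagulation factor VII, 118 and 17.3 CPM, again against 0 counts in sham blood. The lower bounds of the 2 folds were 721 and 650. Mlxipl, the glucose-sensing transcription factor ChREBP, read 68.6 and 20.4 CPM, Epha2, an ephrin receptor, 63.3 and 14.9 CPM, Dpysl3 50.9 and 14.8 CPM, the aspartoacylase gene Aspa 46.6 and 14.8 CPM, Clmn 50.6 and 7.62 CPM, the secreted carbonic anhydrase Car6 48.7 and 4.68 CPM, and the kinase gene Dmpk 6.95 and 46.1 CPM. All 7 had 0 counts in both sham libraries. In 6 of the 7 library 1 was above library 2, with Dmpk the exception. Ltc4s, the synthase of leukotriene C4, read 314 and 44 CPM in the 2 tMCAO libraries, against 0 and 0.0704 CPM in the 2 sham libraries, a ratio of 5180 with a counting interval of 929 to 205000 (95%, counting error only). Car6 passed narrowly, with an adjusted p of 0.0489 that became 0.0547 and 0.0546 without brain library 1 and 2. With limma-voom and all 6 libraries none of these 11 genes was called (adjusted p = 0.0522 for Aspa to 0.157 for Car6), and the call of Clmn was also lost with the size factors of DESeq2 in edgeR. The adjusted p of these 11 genes was 0.0715 to 0.283 without the 3 libraries.

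Several red cell genes of the membrane and of haem synthesis fell after tMCAO. Of 19 tested members in a list of 20, 5 were called lower and 0 higher, against 3.15% of all genes called lower, with a median log2 change of -4.04 (-2.56 with T cell scaling). DESeq2 called 12 lower, against 10.4% of all genes. Epb42, a protein of the red cell membrane skeleton, read 0.108 and 0.249 CPM in the 2 tMCAO libraries, against 40.3 and 79.4 CPM in the 2 sham libraries, a 320-fold fall (log2 change -8.32 ± 0.69, adjusted p = 0.0313). Ank1, ankyrin of the same skeleton, read 0.484 and 0.747 against 7.64 and 12.8 CPM, and Rhd, the Rh antigen, 0.269 and 1.1 against 11.1 and 18.2 CPM. Fech, which inserts iron into haem, read 31.9 and 108 against 1804 and 2646 CPM, and Slc25a37, the iron importer of mitochondria, 56.3 and 124 against 665 and 775 CPM (named after its values were seen, adjusted p = 0.0502 without tMCAO blood library 2). In these 5 genes both tMCAO libraries were low. The globins were not called, and library 2 held more of them than library 1. Hbb-bs read 572 and 17355 CPM in the 2 tMCAO libraries, against 72632 and 76933 CPM in the 2 sham libraries (adjusted p = 0.25) and Hba-a1 338 and 6835 against 37104 and 44672 CPM (adjusted p = 0.183). Alas2, the first enzyme of haem synthesis in red cells, read 2.58 and 103 against 4844 and 6976 CPM (adjusted p = 0.0646). The globin genes have near-identical copies, so the split between them is uncertain. Of 17 tested genes in a list of 18 for iron and haem handling, 2 were called higher and 2 lower (median log2 change 1.35). The shares of all genes were 4.33% and 3.15%. By DESeq2 8 were higher and 2 lower, against 12.4% and 10.4% of all genes. The higher gene Lcn2 is given with the neutrophil genes, with its own range. The lower genes were Ncoa4, which releases iron from ferritin (11.6 and 13.8 against 145 and 195 CPM), and Slc48a1, a haem transporter (34.7 and 47.6 against 272 and 373 CPM). Slc11a1, an iron and manganese transporter of phagosomes, was higher (367 and 208 against 36.6 and 48.6 CPM). Each of these calls was lost without the 3 libraries, at an adjusted p of 0.0715 to 0.28.

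Platelet genes fell in 6 of 15 tested members, in a list of 16, and rose in 0, against 3.15% of all genes called lower (median log2 change -3.13, and -0.51 with T cell scaling). Tubb1, the platelet form of beta tubulin, read 0.915 and 0.149 CPM in the 2 tMCAO libraries, against 79.7 and 134 CPM in the 2 sham libraries (log2 change -7.65 ± 0.81, adjusted p = 0.0313). Itga2b, a chain of the fibrinogen receptor, read 4.52 and 12.3 against 63.1 and 83.8 CPM, and Gp5 and Gp1ba, parts of the receptor for von Willebrand factor, 0.7 and 1.2 against 20.1 and 11.9 CPM and 1.13 and 1.64 against 12.1 and 21.7 CPM. Ppbp, a platelet chemokine, read 49 and 80.8 against 377 and 676 CPM, and Nrgn, a calmodulin-binding protein, 4.2 and 12.6 against 118 and 124 CPM. Gp1ba and Nrgn were named after their values were seen, and the calls of Gp5 and Gp1ba were lost without tMCAO blood library 2 (adjusted p = 0.0607 and 0.0822). Without TMM factors the call of Nrgn was lost (0.0583). Pf4, another platelet chemokine, did not follow: it read 1839 and 449 CPM in the 2 tMCAO libraries, against 443 and 541 CPM in the 2 sham libraries and was not called. Summed over the list the share of counts was 0.194% and 0.104% after tMCAO, against 0.186% and 0.239% after sham. Mmrn1, a protein of platelets and endothelium that was on no list, was among the largest falls (0.108 and 1.74 against 42.7 and 79.3 CPM) and lost its call without TMM factors (adjusted p = 0.0569). These platelet calls had adjusted p of 0.0711 to 0.331 without the 3 libraries.

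GATA factors regulate red cell and platelet genes, and their short site AGATAA is shown in the promoters of 4 genes that fell. The stretches come from chr2:121036994-121037113 (minus strand, Epb42), chr4:134864416-134864535 (plus strand, Rhd), chr17:36869401-36869520 (plus strand, Trim10) and chr16:30310782-30310901 (minus strand, Gp5), with matches in capitals as AGATAA or, from the other strand, TTATCT.
Epb42: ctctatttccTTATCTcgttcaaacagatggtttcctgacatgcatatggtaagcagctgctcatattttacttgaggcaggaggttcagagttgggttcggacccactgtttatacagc
Rhd: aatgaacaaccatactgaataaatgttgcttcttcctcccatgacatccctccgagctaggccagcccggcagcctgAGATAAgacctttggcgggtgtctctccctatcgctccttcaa
Trim10: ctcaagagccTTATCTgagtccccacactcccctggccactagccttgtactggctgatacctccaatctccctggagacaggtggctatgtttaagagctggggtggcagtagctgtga
Gp5: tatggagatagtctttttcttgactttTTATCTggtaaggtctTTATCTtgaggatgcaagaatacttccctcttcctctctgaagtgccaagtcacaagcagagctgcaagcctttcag
Matches began 226, 43 and 163 bases before the start in the first 3 genes, and Gp5 held 2. AGATAA was present on either strand in 4 of 11 red cell genes with a window (36.4%) and 3 of 13 platelet genes (23.1%). In the other lists searched it was in 3 of 10 alternative activation genes (30%), 5 of 32 interferon-induced genes (15.6%) and 0 of 12 macrophage genes. It was in 10.9% of genes called lower, 7.38% of genes called higher and 7.68% of all tested genes with a window. Over all 27025 genes with a window, tested or not, the share was 11.4%.

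Among the other largest falls, Dhrs11 had the smallest adjusted p of the comparison (0.0173), with 1.13 and 1.2 CPM in the 2 tMCAO libraries, against 154 and 225 CPM in the 2 sham libraries and libraries close together in both groups. It encodes a short-chain dehydrogenase. Trim10, a protein needed for red cell maturation, read 0.215 and 3.89 against 107 and 193 CPM. Ctse, the protease cathepsin E, read 1.13 and 4.58 against 83.9 and 107 CPM, and Rbm38, an RNA-binding protein, 2.37 and 7.38 against 91.7 and 107 CPM. Isca1, an iron-sulphur cluster protein of mitochondria, read 19.6 and 35.3 against 475 and 614 CPM. Slc15a2, a peptide transporter, read 1.24 and 1.54 against 44 and 25.8 CPM (adjusted p = 0.051 without tMCAO blood library 2), Arfgap2, which acts on vesicle coats, 0.861 and 1.34 against 20.4 and 25.8 CPM, Fhl1 3.61 and 5.13 against 61.5 and 98.4 CPM (adjusted p = 0.05 without tMCAO blood library 2), and Clu, the secreted chaperone clusterin, 12.3 and 25 against 262 and 400 CPM. In each of these 9 genes both tMCAO libraries lay below both sham libraries, which was a condition for choosing them. Their adjusted p was 0.0711 to 0.28 without the 3 libraries.

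**Figure D5:**
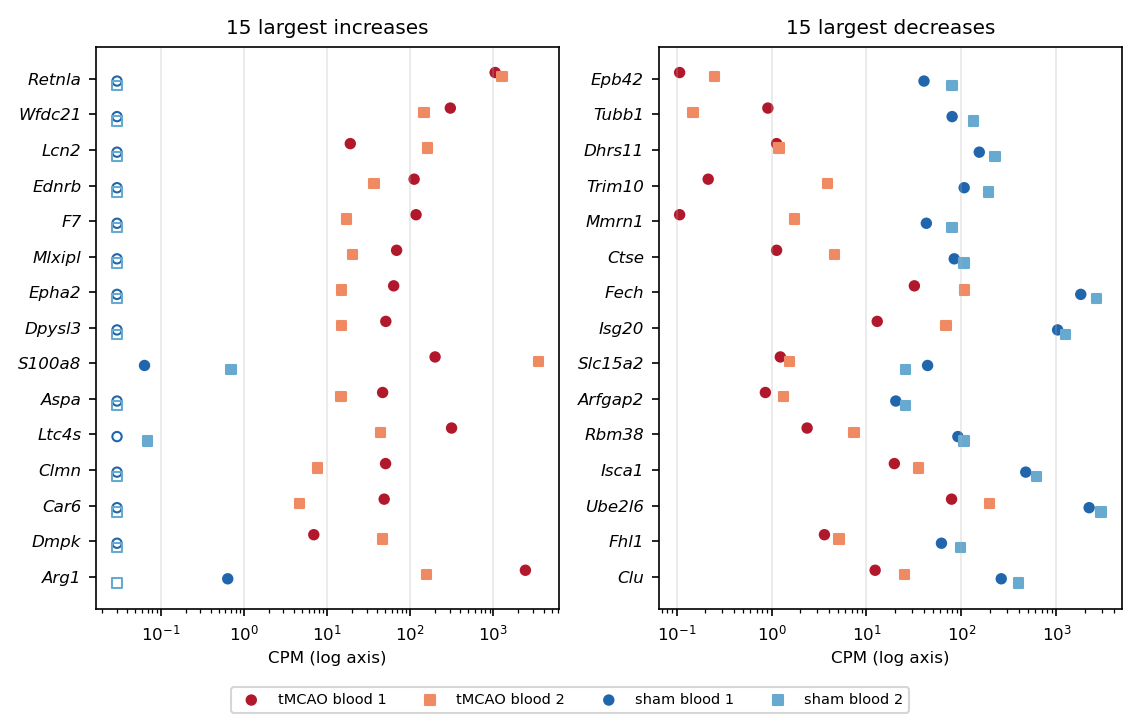
CPM (log axis) of the 15 genes with the largest rise (left) and the 15 with the largest fall (right) in the 4 blood libraries, with circles for library 1 and squares for library 2. Open symbols at the left edge mark 0 counts, and the tMCAO and sham points do not overlap in any of the 30 genes, which was a condition for choosing them.

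Of 41 genes induced by interferon, all tested, 3 were called lower and 0 higher by edgeR, against 3.15% of all genes called lower, and the median log2 change was 0.35. DESeq2 called 8 lower and 3 higher, against 10.4% and 12.4% of all genes. Isg15, a ubiquitin-like protein, read 1.78 and 1.45 CPM in the 2 tMCAO libraries, against 32.3 and 23.5 CPM in the 2 sham libraries, a 17.3-fold fall (log2 change -4.11 ± 0.39, adjusted p = 0.0313). Isg20, an RNase, read 13 and 68.7 against 1029.5 and 1245 CPM, and Irf7, a transcription factor of the interferon response, 100.1 and 97.6 against 381 and 289.8 CPM. Irf7 turned to 1.13 with T cell scaling, and its call was lost without tMCAO blood library 2 (adjusted p = 0.0708). Ube2l6, the enzyme that passes Isg15 to its targets, was not on the list and read 78.7 and 196 against 2209 and 2941 CPM. Rsad2, viperin, read 24.6 and 141 against 1218 and 1462 CPM and was not called (adjusted p = 0.0503, named after its values were seen). The promoter of Isg15 (chr4:156200819-156200938, minus strand) is printed because it holds 3 overlapping copies of the interferon-response motif GAAANNGAA.
Isg15: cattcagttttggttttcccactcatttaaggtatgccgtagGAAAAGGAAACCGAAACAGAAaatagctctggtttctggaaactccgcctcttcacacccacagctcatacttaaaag
This motif was present on either strand in 19 of 32 listed genes with a window (59.4%), 7.74% of all tested genes with a window, 7.93% of those called higher and 8.63% of those called lower. For the 3 calls and Ube2l6 the adjusted p without the 3 libraries was 0.0711 to 0.269.

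By edgeR 3 genes of the T cell programmes below were called, and DESeq2 called more. The share of all genes called lower by edgeR was 3.15%. Of 22 core Treg genes 1 was lower, Cd83, and 18 had both tMCAO libraries below both sham libraries (median log2 change -2.08, and 0.09 with T cell scaling). Ctla4, an inhibitory receptor, read 29.4 and 97.7 against 251 and 270.5 CPM, and Ikzf2, the transcription factor Helios, 64.4 and 437 against 582 and 509.6 CPM. Ikzf2 in tMCAO library 2 was near the sham level, and neither gene was called (adjusted p = 0.265 and 0.442). Tnfrsf4, the costimulatory receptor OX40, read 24.6 and 95.8 against 386 and 406 CPM and was not called by edgeR (adjusted p = 0.0745). DESeq2 called 6 of the 22 lower and 0 higher. With the replicate block 7 of the 22 were lower, against 550 of all 16657 genes tested. Of 14 genes of the interleukin-2 receptor and STAT5 pathway 2 were lower and 0 higher by edgeR, and 8 lower and 1 higher by DESeq2 (median -1.15, and 1.30 with T cell scaling). DESeq2 called 10.4% of all genes lower and 12.4% higher. The 2 genes called lower by edgeR were Il2rg, the common chain of the receptor (249 and 244 against 756 and 749.6 CPM), and Jak3, the kinase bound to it (7.27 and 11.8 against 32.7 and 38.5 CPM). With T cell scaling they turned to 1.28 and 0.71, and without tMCAO blood library 2 the adjusted p of Il2rg was 0.0963. Without TMM factors the adjusted p was 0.0723 for Il2rg and 0.0768 for Jak3, and the replicate block gave 0.0552 for Il2rg. Of 26 genes of T cell receptor signalling edgeR called 0 and DESeq2 4 lower, with a median of -1.08 (1.11 with T cell scaling) and 17 below sham in both libraries. Lck, the kinase next to the receptor, read 59.6 and 326 against 1147 and 1342 CPM. In this group the adjusted p of the 3 calls without the 3 libraries was 0.102 to 0.305.

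Genes of lymphocyte recirculation and rest gave 0 calls among 20, with 16 below sham in both tMCAO libraries and a median of -1.10. Gimap3 and Gimap4, small GTPases of lymphocyte survival, read 72.1 and 312 against 1399 and 1766 CPM and 102 and 400.2 against 1314 and 1483 CPM. Of 20 checkpoint and costimulatory genes 0 were called (median -1.50), and Icos read 46.8 and 196 against 372 and 262 CPM. The tissue Treg programme also gave 0 calls among 20 genes, with a median of -0.53. By DESeq2, 7 of the 20 recirculation genes, 6 of the 20 checkpoint genes and 4 of the 20 tissue Treg genes were lower. In each list 1 gene was higher. Over all genes DESeq2 called 10.4% lower and 12.4% higher. The medians of these 3 lists turned to 0.95, 0.76 and 1.99 with T cell scaling, below the 2.93 of all genes under that scaling.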

How the data were processed

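Bulk RNA sequencing was done on 500 to 1000 sorted cells per library. The authors deposited raw read counts for each gene, which the submitters' processing notes trace to STAR, HTSeq 0.11.2 and GRCm38. Which gene annotation was used, whether strand was read and how multiply mapped reads were handled are not given in the sources used here. The kit amplifies cDNA by PCR without molecular identifiers, so intervals and floors cover counting error only.

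Libraries were grouped by their titles. All 6 libraries, 2 a group, entered one fit in edgeR 4.0.16 (R 4.3.3) without covariates (3 residual degrees of freedom), after filterByExpr (minimum count 10) and TMM scaling, with Benjamini-Hochberg adjustment over 16657 of 51361 genes. Of the table's genes 31242 had a count. Where a group had 0 counts, it was set to 3 counts in all to give a lower bound of the fold. Totals ran from 14348179 to 24460894 counts.

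The gene lists and the rule for named genes were chosen with earlier results of these data known. The rule named 7 genes that define the sort or the series title, the 15 largest called changes each way (at least 20 CPM in the higher group, no overlap, no predicted or receptor-segment genes), and up to 4 called members of a list by adjusted p, or the 2 of highest level where none was called. Several genes so named were left out. Genes outside the rule are marked in the text, apart from Chil3, Mrc1, Hbb-bs, Hba-a1, Alas2 and Pf4. These were outside the rule too. List members Ahsp, BC100530, Ero1l and Hist1h1b were not in the table.

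The fit was tested on simulated counts with known changes. Alternatives were DESeq2 1.42.0, limma 3.58.1 (voom), other filters and scalings, a replicate block, and each library left out. GENCODE M21 held 97.2% of the symbols, and of 133 genes looked up there, 23 overlap another protein-coding gene, Foxp3, Il2rg, Irf7, Jak3, P2ry12, Csf1r and Itgam among them. Without a stated strand setting such reads cannot be told apart. Promoter windows were RefSeq, GRCm38.p6.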

Additional observations from a re-analysis of the deposited data

How the results depend on the processing

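Of 104 called genes named in the text, edgeR kept 0 without tMCAO blood library 1, sham library 1 or sham library 2, 87 without tMCAO blood library 2, and 90 and 92 without brain library 1 and 2. Counts without 1 library ranged from 0 to 824 higher and 0 to 442 lower, against 722 and 524. On the genes tested with all 6 libraries the leave-outs gave 904 higher and 551 lower without tMCAO blood library 2 and 0 in each direction without the other 3 blood libraries; DESeq2 gave 1844 and 1648 without tMCAO blood library 2 and kept 101, 100 and 95 named calls without the other 3 (both added after seeing the data). No filter on low counts gave 2089 higher and 1522 lower (31242 genes), a filter of 5 CPM in 2 libraries 1109 and 751 (10987 genes), DESeq2 2065 and 1724, and the blood libraries alone 992 and 747. DESeq2 without the 3 libraries gave 901, 973 and 841 higher and 1117, 624 and 338 lower. T cell scaling gave 1351 and 1 and kept 47 of the 104 calls, limma-voom kept 81 (524 higher, 622 lower), and other scalings changed no count by over 1.5 times. The replicate block gave 768 and 550 (775 and 554 with blood alone). The labels do not say that shared replicate numbers pair the samples. Across genes, deviations of library 1 from its group mean correlated at -0.0702 for tMCAO blood with sham blood. The correlation was -0.0285 for sham blood with tMCAO brain and 0.304 for tMCAO blood with tMCAO brain. Whether blood and brain libraries shared animals was not tested. The cause of the differences between settings was not tested.

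With T cell scaling 16 named genes turned to a positive log2 change: P2ry12 0.95, Irf7 1.13, Selplg 0.98, Jak3 0.71, Il2rg 1.28, Cd209a 0.97, Relb 0.94, Icam1 0.55, Fdft1 1.15, Hsf1 1.19, Dnajb1 1.09, Cd4 0.02, Ctla4 0.18, Ikzf2 0.72, Trbc2 0.21 and Icos 0.70. Ccr2 turned to -0.15, -0.20 and -0.16 without tMCAO blood library 2 and to -0.06, -0.05 and -0.06 without sham library 2 (edgeR, edgeR on the same genes, DESeq2; -0.15 to 0.42 over the libraries left out in turn), and Pf4 to -0.14, -0.13 and -0.17 without tMCAO blood library 1 (-0.14 to 1.90 over the libraries left out). With 2 libraries a group, genes not called cannot be read as unchanged.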

Other observations

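Variable segments of the antigen receptors were measured too. With at least 10 counts, 3 and 22 T cell receptor alpha segments were seen in tMCAO blood library 1 and 2 and 58 and 60 in the sham libraries, and 12, 16, 22 and 22 beta segments in the same order. Segments of a family are alike in sequence, so single segments are uncertain. Trbc2, a constant segment of the beta chain, read 85.2 and 596 against 1156 and 937 CPM and was not called. Of 59 tested alpha segments 5 were called lower by edgeR, and of 22 tested beta segments 8, with 0 higher in either. The share of all genes called lower was 3.15%. Tested segments may have passed the filter on low counts only through the sham libraries, so these counts are not read as a result. Immunoglobulin variable segments gave 0 calls among 6 tested heavy chain and 18 kappa chain genes. B cell markers gave 0 calls among 17 tested genes in a list of 18, with a median log2 change of 0.20. The list of CD8 T and natural killer cell genes also gave 0 calls by edgeR among 17. DESeq2 called 1 lower, against 10.4% of all genes. Its abundant members Ccl5 and Nkg7 read 163 and 283 against 62.1 and 118 CPM and 179 and 450.1 against 101 and 129.8 CPM.

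Of stress and activation genes, the counts are given against 4.33% of all genes called higher and 3.15% called lower, and are not read as a result about these lists where they lie near those shares. Of 30 immediate early genes 2 were higher, Klf4 (90.8 and 76.4 against 15.5 and 13.5 CPM), a transcription factor of monocytes, and Fosl2 (57.4 and 24.2 against 8.34 and 5.35 CPM), an AP-1 subunit, and 0 lower. Among 25 NF-kB and TNF pathway genes Tnfaip2 was higher (122 and 58.1 against 8.34 and 5.42 CPM), and Relb, an NF-kB subunit (8.61 and 13.3 against 30 and 41.3 CPM), and Icam1, an adhesion receptor (9.85 and 3.39 against 29.3 and 58.7 CPM), were lower. The heat shock factor Hsf1 (22.6 and 26.8 against 67.5 and 82 CPM) and the co-chaperone Dnajb1 (55.8 and 42 against 136 and 235 CPM) were lower among 15 heat shock genes. In glycolysis Hk2, a hexokinase, was higher among 22 genes (78.9 and 36.3 against 13.9 and 12.4 CPM). In cholesterol metabolism Fdft1, squalene synthase, was lower among 17 genes (10.8 and 13.7 against 36.8 and 37.3 CPM). None of these calls held by edgeR without tMCAO blood library 1 or either sham library. Without tMCAO blood library 2 the adjusted p was 0.0783 for Icam1 and 0.112 for Dnajb1. Without brain library 1 it was 0.0503 for Fosl2, and without brain library 1 and 2 it was 0.0544 and 0.0524 for Relb, 0.0617 and 0.0604 for Icam1, 0.0532 and 0.0511 for Hk2, and 0.0506 and 0.0502 for Dnajb1. With limma-voom the adjusted p was 0.0639 for Fosl2 and 0.0538 for Hk2, without TMM factors 0.0673 for Relb and 0.0552 for Fdft1, with the blood libraries alone 0.0521 for Icam1, and with the replicate block 0.0566 for Icam1 and 0.0525 for Dnajb1. The calls of Relb, Icam1, Hsf1, Dnajb1 and Fdft1 changed direction with T cell scaling. Genes of the cell cycle (25), mitochondrially encoded genes (13) and ribosomal protein genes (75) gave 0 calls by edgeR, with medians of 0.36, 0.66 and 0.22. DESeq2 called 1, 0 and 6 of them higher and 0, 0 and 1 lower, against 12.4% and 10.4% of all genes. Astrocyte and neuron markers stayed at or under 0.00148% of counts in every blood library and gave 0 edgeR calls among 8 and 4 tested genes of 10 each.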
